A study of Mus musculus with 2 samples.

Results

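Bile acid synthesis and export was described by 10 genes, Cyp7a1, Cyp8b1, Cyp27a1, Cyp7b1, Abcb11, Abcb4, Abcc2, Nr0b2, Nr1h4 and Baat, chosen by symbol out of the 19465 genes that the probes of the assay report. Each of the 10 was found once, and each had a mean of at least 10 counts per 1000000 UMIs (CPM) over the libraries. The data were Visium spatial transcriptomics (ST) of formalin-fixed, paraffin-embedded mouse liver. A Visium spot is a small area of a section that can hold several cells, and its readout is the number of unique molecular identifiers (UMIs) per gene. There was 1 section from a mouse lacking AEG-1 (gene Mtdh) in myeloid cells (AEG-1ΔMAC) and 1 from a mouse with the floxed gene and no such deletion (AEG-1fl/fl), both at 27 weeks of age. The labels put both mice on HF/HSD, the high fat and high sugar diet, from week 7, whereas the methods of the study describe these sections as control diet (CD) livers. The diet is therefore open, but the labels and the methods each give both mice the same one. The deletion is in myeloid cells, while the 10 genes are known as hepatocyte genes, and Mtdh is known to be active in many cell types, so its level in whole spots (66.3 CPM in AEG-1ΔMAC against 60.2 CPM in AEG-1fl/fl) does not check the deletion.

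Hepatocytes make bile acids from cholesterol. In the classic pathway Cyp7a1 starts the conversion by 7α-hydroxylation and Cyp8b1 adds the 12α-hydroxyl group that leads to cholic acid, and in the alternative pathway Cyp27a1 oxidises the side chain and Cyp7b1 hydroxylates the resulting oxysterols. Baat joins the finished acids to taurine or glycine, Abcb11 (BSEP) pumps the conjugates into the canaliculus, Abcb4 moves phosphatidylcholine into bile, and Abcc2 (MRP2) exports conjugated organic anions. Bile acids bind the nuclear receptor Nr1h4 (FXR), which is known to switch on Abcb11 and Nr0b2, and the protein of Nr0b2 (SHP) is known as a repressor of Cyp7a1 and Cyp8b1. In the lobule, blood flows from the portal tract (zone 1) to the central vein (zone 3), and Cyp7a1 is known as a pericentral gene.

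The 2 libraries held 2140 spots with 45453286 UMIs (AEG-1ΔMAC) and 2540 spots with 50322850 UMIs (AEG-1fl/fl), with medians of 20929.5 and 18285 UMIs per spot. With 1 library per genotype no test was possible, and all intervals are exact 95% counting intervals, unless called otherwise, which take in the error of counting and leave out how far mice or sections differ among themselves. Probes differ in how well they bind, so levels were compared between libraries for 1 gene at a time, and counts or shares of different genes carry no order of expression. Of the 19465 genes, 6933 reached a mean of 10 CPM, and the median of their log2 ratios, with AEG-1ΔMAC divided by AEG-1fl/fl, was 0.15 rather than 0. The hepatocyte markers did not move together: Alb was at 141947 CPM in AEG-1fl/fl and 87957 CPM in AEG-1ΔMAC (log2 ratio -0.69), whereas Serpina1c (0.61) and Hnf4a (0.46) were higher in AEG-1ΔMAC, and the sum of the list of 5, most of it Alb, stood at -0.53. Summed markers of cholangiocytes differed by a log2 ratio of -0.01, of stellate cells by -0.01, of endothelial cells by 0.03, of smooth muscle by 0.07 and of Kupffer cells by -0.16. Single markers within these lists lay further apart, among them Fabp5 (-1.84) and Marco (-1.38) of Kupffer cells, Sox9 (-0.91) of cholangiocytes, and Myh11 (0.62), Acta2 (0.60) and Tagln (-0.24) of smooth muscle. The lists were mixed. Of the Kupffer cell markers Cd5l (0.21) and Clec4f (0.05) were higher in AEG-1ΔMAC, and Vsig4 was at -0.07. Of the cholangiocyte markers 4 were higher: Krt19 (0.31), Epcam (0.26), Spp1 (0.24) and Krt7 (0.19). The part of these markers in the members' values was not tested. The libraries shared 1782 spot barcodes, because every capture area uses the same barcode list.

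Cyp7a1 stood out among the members. It had 4165 UMIs in AEG-1ΔMAC, or 91.6 CPM with an interval from 88.9 to 94.5, and 2446 UMIs in AEG-1fl/fl, or 48.6 CPM with an interval from 46.7 to 50.6. The intervals of the 2 libraries did not overlap, and the level was 1.89-fold higher in AEG-1ΔMAC, a log2 ratio of 0.91 with an interval from 0.84 to 0.99. A ratio above that of 98.5% of the 6933 genes placed Cyp7a1 near the upper end of the whole table. The gene lies on the minus strand of chromosome 4 at 6265612 to 6275633 (GRCm38, the same assembly as mm10). It was the 1 member of 10 to be at least 1.5-fold higher in AEG-1ΔMAC with an interval on the same side of 1, against 4.3% of all 6933 genes. No member was at least 2-fold higher, against 1.27% of all genes.

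Nr0b2, the repressor, was the member with the lowest ratio. It measured 3030 UMIs and 66.7 CPM (64.3 to 69.1) in AEG-1ΔMAC and 5024 UMIs and 99.8 CPM in AEG-1fl/fl. The log2 ratio was -0.58 with an interval from -0.65 to -0.52, and AEG-1fl/fl was 1.498-fold higher, just inside the 1.5-fold limit. Only 1.80% of genes had a lower ratio. By the rule, 0 members were at least 1.5-fold lower in AEG-1ΔMAC, against 1.79% of all genes, and 0 were at least 2-fold lower, against 0.519%. Measured from the median of all genes, the ratio of Nr0b2 was -0.73 and passed the limit, as it also did with 3 other scalings and with each spot counting equally. Within a library the level of Cyp7a1 set against that of Nr0b2 does not depend on the scaling. This ratio was 1.497 log2 units higher in AEG-1ΔMAC (1.40 to 1.59). The 2 genes have the highest and lowest ratios, so their gap is by construction the widest of the 45 pairs of members. Nr0b2 lies on the plus strand of chromosome 4 at 133553376 to 133556536.

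The sequence before the start site was at hand, in RefSeq promoter windows of GRCm38.p6, for 7 of the 10 members, and not for Cyp7a1, Cyp7b1 and Baat. Shown are Nr0b2, which had the lowest ratio, and Cyp8b1 and Abcb11, whose CPM over whole sections differed little between the libraries. Each window runs 5′ to 3′ along the gene from 250 bases before the start site to 50 bases after its first base. The capitals mark matches, on either strand, to 4 short motifs that were picked after these windows had been read.
Nr0b2, chr4:133553126-133553425, plus strand: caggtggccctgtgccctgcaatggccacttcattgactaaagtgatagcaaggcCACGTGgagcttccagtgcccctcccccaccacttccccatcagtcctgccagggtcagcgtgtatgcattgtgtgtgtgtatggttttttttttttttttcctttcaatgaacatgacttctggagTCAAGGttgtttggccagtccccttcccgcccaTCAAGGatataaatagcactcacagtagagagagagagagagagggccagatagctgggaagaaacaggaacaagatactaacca
Cyp8b1, chr9:121916256-121916555, minus strand: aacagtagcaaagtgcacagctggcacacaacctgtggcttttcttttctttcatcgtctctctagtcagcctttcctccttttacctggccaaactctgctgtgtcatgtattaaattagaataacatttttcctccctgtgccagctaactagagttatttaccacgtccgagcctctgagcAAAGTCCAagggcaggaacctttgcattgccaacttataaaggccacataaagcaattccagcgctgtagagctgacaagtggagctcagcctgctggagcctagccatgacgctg
Abcb11, chr2:69342567-69342866, minus strand: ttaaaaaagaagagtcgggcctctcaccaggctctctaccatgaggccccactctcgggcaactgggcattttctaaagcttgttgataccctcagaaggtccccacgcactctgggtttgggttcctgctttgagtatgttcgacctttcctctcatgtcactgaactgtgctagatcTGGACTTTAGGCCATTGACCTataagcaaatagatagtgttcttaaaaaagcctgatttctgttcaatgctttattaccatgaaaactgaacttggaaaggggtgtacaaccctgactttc

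The window of Nr0b2 held TCAAGG, the letters at the core of sites for the receptor Nr5a2 (LRH-1), at positions -68 and -35, and the E-box CACGTG, a motif that circadian factors are known to bind, at -195. In all 32851 windows of the RefSeq table, TCAAGG occurred in 14.4% and CACGTG in 7.15%. Abcb11 held an inverted repeat of the kind that FXR is known to bind, searched as AGGNCA and TGACCT set 1 base apart (N is any base) or the same on the other strand. Its letters AGGCCATTGACCT began at -63, directly after the letters TGGACTTT at -71, which are AAAGTCCA on the other strand. The inverted repeat was found in 12 windows, or 0.0365%, and AAAGTCCA in 1.25%. Cyp8b1 held AAAGTCCA, letters found in sites for Hnf4a, at -66. The windows of Cyp27a1, Abcb4 and Nr1h4 held none of the 4 motifs, and that of Abcc2 held TCAAGG at position 22 after the start. The Nr1h4 window, chr10:89506609-89506908, lies inside the span of the gene (89454234 to 89533585, minus strand). It therefore covers an internal start site, and the sequence before the outer end of the gene was not searched. These matches describe letters in a window and say nothing of binding in these sections.

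Cyp8b1, the other enzyme of the classic pathway, did not share the high ratio of Cyp7a1. It had 911 UMIs (20.0 CPM) in AEG-1ΔMAC and 1099 UMIs (21.8 CPM) in AEG-1fl/fl. The log2 ratio was -0.12 with an interval from -0.25 to 0.00, which reached equal levels in this scaling. It was lower under the other scalings, at -0.25 with TMM factors and -0.27 by median-of-ratios scaling or without the 50 most abundant genes. Measured from the median of all genes it was -0.27. The ratio of Cyp7a1 to Cyp8b1 within a library was 1.04 log2 units higher in AEG-1ΔMAC (0.89 to 1.18). Cyp8b1 lies on chromosome 9 at 121914356 to 121916305, minus strand.

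Both enzymes of the alternative pathway were higher in AEG-1ΔMAC, by less than 1.5-fold. Cyp7b1 measured 21645 UMIs and 476 CPM in AEG-1ΔMAC and 16269 UMIs and 323 CPM in AEG-1fl/fl. Its log2 ratio was 0.56 (0.53 to 0.59), or 1.47-fold, above 95.3% of genes. Cyp27a1, a mitochondrial enzyme, measured 25885 UMIs and 569 CPM in AEG-1ΔMAC and 21716 UMIs and 432 CPM in AEG-1fl/fl. Its log2 ratio was 0.40 (0.37 to 0.43). Cyp7b1 thus came second to Cyp7a1 among the members, and Cyp7a1 exceeded it by 0.36 log2 units (0.28 to 0.43). Cyp7b1 lies on chromosome 3 at 18071950 to 18243338, minus strand, and Cyp27a1 on chromosome 1 at 74713574 to 74737892, plus strand.

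The canalicular exporters did not move as a block. Abcc2 had the highest ratio of the 3, with 9628 UMIs (212 CPM) in AEG-1ΔMAC and 8146 UMIs (162 CPM) in AEG-1fl/fl, which is 0.39 on the log2 scale (0.35 to 0.43). Abcb4 had 2658 UMIs (58.5 CPM) and 2501 UMIs (49.7 CPM), a log2 ratio of 0.23 (0.16 to 0.31). Abcb11, the bile salt pump, had 17212 UMIs (379 CPM) and 18224 UMIs (362 CPM), and its log2 ratio of 0.06 (0.03 to 0.09) lay below the median of all genes. The sign for Abcb11 depended on the scaling: the log2 ratio was -0.06 when TMM factors were used, and -0.08 either by median-of-ratios scaling or without the 50 most abundant genes. Abcc2 was 0.32 log2 units above Abcb11 in its ratio (0.27 to 0.38). Abcb11 lies on chromosome 2 at 69238282 to 69342616, minus strand, Abcb4 on chromosome 5 at 8893717 to 8959231, plus strand, and Abcc2 on chromosome 19 at 43782192 to 43840740, plus strand. Abcb4 has close relatives in the genome, and the probe sequences were not examined here.

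The receptor and the conjugating enzyme were both slightly higher in AEG-1ΔMAC. Nr1h4, the gene of FXR, measured 6235 UMIs and 137 CPM against 5406 UMIs and 107 CPM, a log2 ratio of 0.35 (0.30 to 0.41). Baat measured 17025 UMIs and 375 CPM against 16716 UMIs and 332 CPM, a log2 ratio of 0.17 (0.14 to 0.20), next to the median of all genes. Nr1h4 and the gene it is known to induce, Nr0b2, thus lay on opposite sides of equality, and their ratio within a library was 0.94 log2 units lower in AEG-1ΔMAC for Nr0b2 (0.85 to 1.02 in size). Nr1h4 lies on chromosome 10 at 89454234 to 89533585 and Baat on chromosome 4 at 49489422 to 49506557, both on the minus strand. Over the 10 members the median log2 ratio was 0.29, which is 0.15 above that of all genes, with 8 members above 0 and 2 below, where 78.3% of all 6933 genes were above 0.

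**Figure D1:**
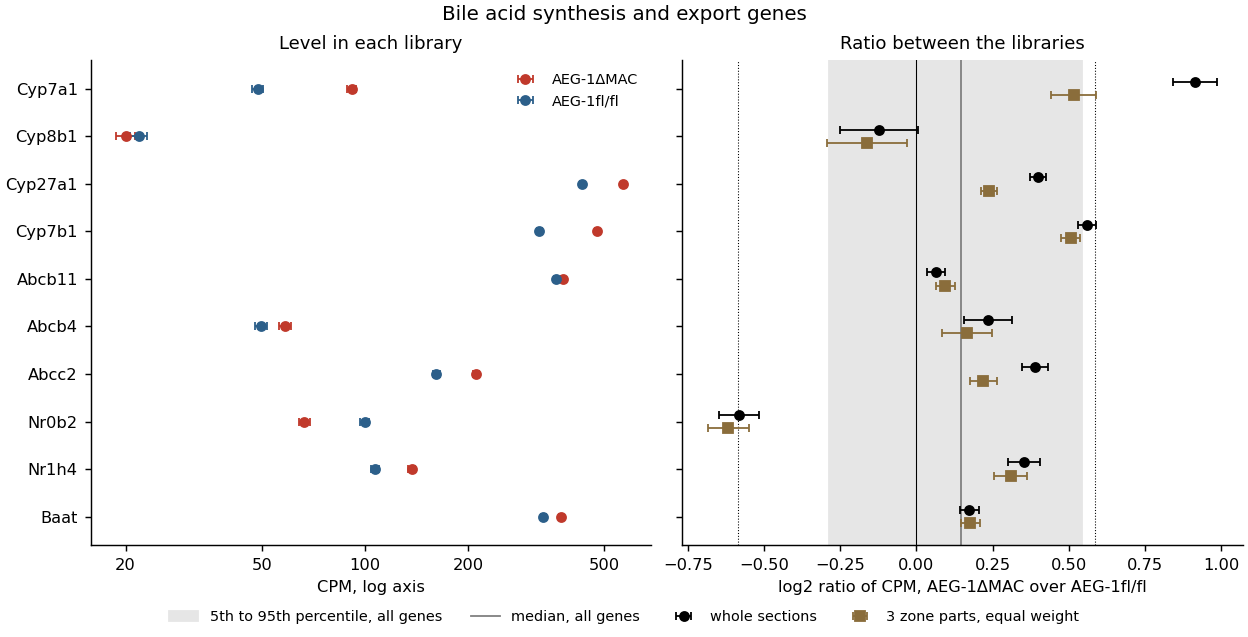
Left, CPM of the 10 genes in each library on a log axis. Right, log2 ratio of AEG-1ΔMAC over AEG-1fl/fl for whole sections (circles) and for 3 zone parts given equal weight (squares). Bars are 95% counting intervals, the dotted lines mark 1.5-fold, the grey line the median of all genes and the grey band their 5th to 95th percentiles. Cyp7a1 lies at 0.91 for whole sections and at 0.52 with equal weight, and Nr0b2 at -0.58 and -0.62.

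The share of spots with a UMI gave a view that does not rest on a few spots. Spots with at least 10000 UMIs were thinned to that number, which kept 2114 spots and left out 26 in AEG-1ΔMAC, and kept 2434 and left out 106 in AEG-1fl/fl. Cyp7a1 was seen in 53.9% (51.7 to 56.0) of the AEG-1ΔMAC spots against 34.4% (32.5 to 36.4) of the AEG-1fl/fl spots. Nr0b2 was seen in 47.7% (45.6 to 49.9) and 63.2% (61.2 to 65.1). Both genes therefore differed in how many spots showed them, in opposite directions and with intervals apart. Without thinning, Cyp7a1 was seen in 75.9% against 52.3% of spots and Nr0b2 in 72.3% against 81.9%. Of the 3 ileum markers in the gene list, Vil1 was seen in 0.237% and 0.123% of thinned spots and Fgf15 in 0% of both libraries. The third, Slc10a2, was seen in 16.8% and 37.4%, so the list gives no single background. Cyp27a1, Cyp7b1, Abcb11 and Baat were seen in 95.0% to 99.0% of the spots of both libraries, so for them the share carries little information. Cyp8b1 was seen in 17.2% and 19.2% of spots.

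The lobule axis was then read from a zone index, the mean of the zone 3 genes Cyp2e1, Cyp1a2 and Oat minus that of the zone 1 genes Pck1, Hal, Gls2, Cyp2f2, Hsd17b13 and Arg1, none of which is a member. The spots of each library were ranked by it and divided into 3 equal parts. In each library 3 members were at least 1.5-fold higher in the zone 3 part than in the zone 1 part, namely Cyp7a1, Cyp27a1 and Abcc2 in both. That is 3 of 10, set against 2.97% of all genes for AEG-1ΔMAC and 2.81% for AEG-1fl/fl. No member was at least 1.5-fold higher in the zone 1 part, where 1.9% and 1.61% of all genes were.

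Cyp7a1 was the most zoned member. In AEG-1ΔMAC its level went from 38.2 CPM in the zone 1 part over 89.1 CPM in the middle to 148 CPM in the zone 3 part, and in AEG-1fl/fl from 18.1 over 39.7 to 89.1 CPM. The zone ratio, zone 3 over zone 1, was 3.87-fold and 4.94-fold, or 1.95 (1.82 to 2.09) and 2.30 (2.12 to 2.49) on the log2 scale. The zone 3 part held 53.3% of all Cyp7a1 UMIs for AEG-1ΔMAC and 59.5% for AEG-1fl/fl. Over 10 bins of the index the level went from 20.2 to 186 CPM and from 8.25 to 120 CPM, and AEG-1ΔMAC was higher in 10 of 10 bins with the intervals apart in each. The gradient was thus steep in both libraries. The bins are ranks within a library, so a bin need not be the same place in the lobule in both sections.

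Cyp27a1 and Abcc2 had shallower gradients. Cyp27a1 went from 406 over 575 to 728 CPM in AEG-1ΔMAC and from 330 over 412 to 555 CPM in AEG-1fl/fl, zone ratios of 1.79-fold and 1.68-fold. Abcc2 went from 159 over 218 to 258 CPM and from 113 over 155 to 218 CPM, zone ratios of 1.62-fold and 1.92-fold. For both genes the part order was the same in the libraries. In the outermost bin at the zone 3 end Abcc2 was at 250 CPM (AEG-1ΔMAC) against 257 CPM (AEG-1fl/fl), the 1 bin of 10 in which AEG-1ΔMAC was not higher.

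**Figure D2:**
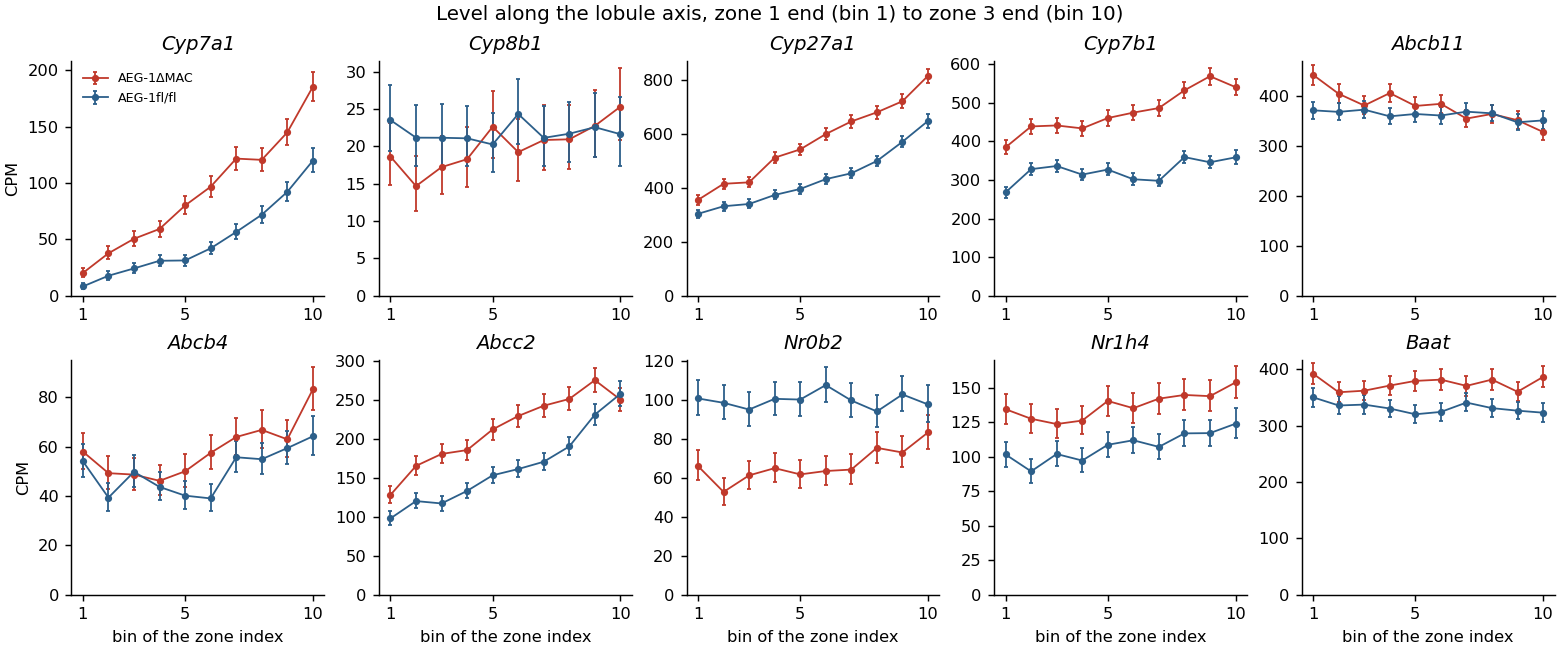
CPM of each gene over 10 bins of spots ranked by the zone index within a library, from the zone 1 end (bin 1) to the zone 3 end (bin 10); bars are exact Poisson 95% intervals. Cyp7a1 climbs from 20.2 to 186 CPM in AEG-1ΔMAC and from 8.25 to 120 CPM in AEG-1fl/fl, while Nr0b2 is lower in AEG-1ΔMAC in 10 of 10 bins.

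The other members had little zonation, and some of it differed between the libraries. Nr0b2 was level in AEG-1fl/fl, at 97.4, 103 and 98.9 CPM from the zone 1 part to the zone 3 part, and inclined in AEG-1ΔMAC, at 60.6, 64.7 and 74.8 CPM. Its log2 zone ratios were 0.02 and 0.30, a difference of 0.28 (0.12 to 0.44). Cyp8b1 showed the same form, flat in AEG-1fl/fl at 21.8, 21.9 and 21.8 CPM and at 16.5, 21.04 and 22.6 CPM in AEG-1ΔMAC, a difference in log2 zone ratio of 0.45 (0.14 to 0.77). With an index from other landmark genes this difference was 0.19, with zone ratios of 0.30 in AEG-1ΔMAC against 0.11 in AEG-1fl/fl, so its size rested on the index. The difference of Nr0b2 was 0.21 with that index. Intervals were not worked out there, so whether either difference stayed away from 0 was not shown. Abcb11 leaned the other way in AEG-1ΔMAC, from 408 to 350 CPM, while AEG-1fl/fl went from 371 to 355 CPM. Baat was near level in both, at 373, 375 and 376 CPM and at 340, 327 and 330 CPM. Cyp7b1, Abcb4 and Nr1h4 had zone ratios between 1.13-fold and 1.37-fold in both libraries. Counting all 10 with the first index, the log2 zone ratio was higher in AEG-1ΔMAC for 4 members and in AEG-1fl/fl for 3 with the interval of the difference away from 0. The share of all genes that pass this rule was not worked out, so these counts show nothing particular to the members.

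**Figure D3:**
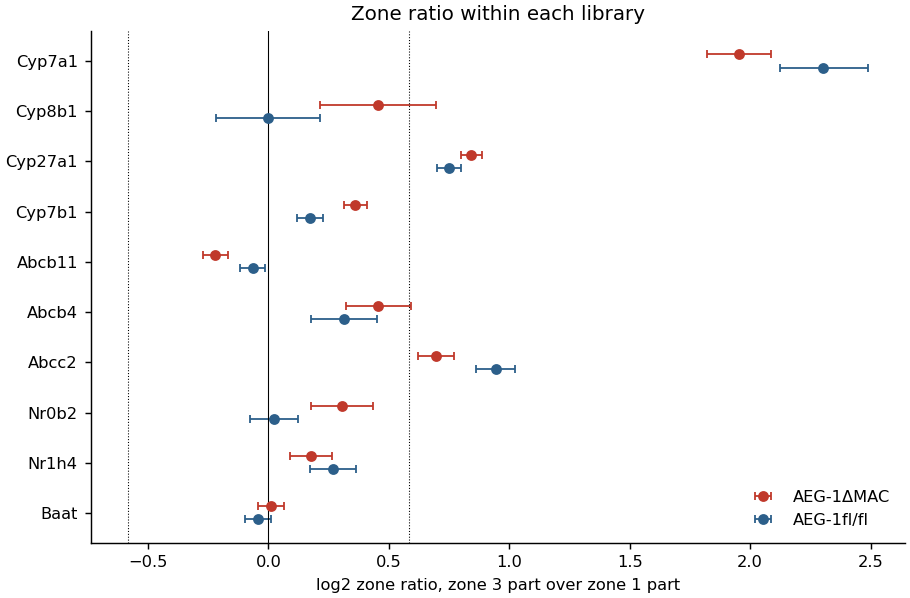
Log2 zone ratio, zone 3 part over zone 1 part, of each gene in each library, with 95% counting intervals; dotted lines mark 1.5-fold. Cyp7a1 lies at 1.95 (AEG-1ΔMAC) and 2.30 (AEG-1fl/fl), and Cyp27a1 and Abcc2 are the other 2 genes beyond the right-hand line in both libraries.

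The ratio between the libraries was next taken within each part. Cyp7a1 had log2 ratios of 1.08 in the zone 1 part, 1.17 in the middle and 0.73 in the zone 3 part. For Nr0b2 they were -0.69, -0.67 and -0.40 in that order. With spots ranked within each library, both were thus furthest from equality outside the zone 3 part. For Cyp7a1 this rested on the ranking, since the intervals of its 3 ratios overlapped with the shared cut points described below. Cyp8b1 had -0.40 (-0.64 to -0.17) in the zone 1 part and 0.05 (-0.17 to 0.27) in the zone 3 part. All 10 members kept their overall side in the zone 1 and middle parts, and 8 of 10 in the zone 3 part, where Cyp8b1 and Abcb11 (-0.02) crossed. The overall ratio pools these same parts, so agreement of side is partly built in. The share of all genes that kept their side was not worked out.

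The sections differed in how their spots were spread along the axis, which touches Cyp7a1 most. When the index was scaled over the spots of both libraries together and divided at shared cut points, the zone 3 part took 43.7% of the AEG-1ΔMAC spots against 24.6% of the AEG-1fl/fl spots, and the zone 1 part 22.9% against 42.1%. Of 9 other zone 3 landmarks 8 were higher in AEG-1ΔMAC, and their sum had a log2 ratio of 0.51, against 0.05 for the sum of 9 zone 1 landmarks, of which 5 were higher. Whether this reflects the area of each zone that was cut or the level of zoned genes per cell cannot be told apart in these 2 sections. The shared cut points rest on the levels of the index genes. Of these, the study lists Cyp2e1, Cyp1a2 and Pck1 as higher in AEG-1ΔMAC in some of its groups of spots. A shared part therefore need not be the same place in the lobule in both sections. Within shared parts Cyp7a1 measured 31.1 against 20.98 CPM in zone 1, 71.2 against 47.6 CPM in the middle and 139 against 100 CPM in zone 3. Those are log2 ratios of 0.57 (0.35 to 0.78), 0.58 (0.45 to 0.71) and 0.47 (0.38 to 0.57), so Cyp7a1 remained higher in each part but below 1.5-fold.

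Giving the 3 shared parts equal weight, a setting chosen after these values were seen, put Cyp7a1 at 1.43-fold (log2 ratio 0.52, 0.44 to 0.59). In this setting 0 members were at least 1.5-fold higher, against 3.71% of all genes. Nr0b2 was not reduced by the same step: its log2 ratios in the shared parts were -0.75, -0.66 and -0.45, and with equal weight it was -0.62 (-0.68 to -0.55), which is 1.53-fold and past the limit. It was the 1 member at least 1.5-fold lower, against 1.88% of all genes. Cyp27a1 went from 0.40 to 0.24 and Abcc2 from 0.39 to 0.22, the other 2 zoned members. Cyp7b1, with little zonation, went from 0.56 to 0.51. The difference in zone ratio of Cyp7a1 between the libraries was -0.35 with ranks within each library and -0.09 with shared cut points, whereas that of Cyp8b1 was 0.40 and that of Nr0b2 0.30 with shared cut points.

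**Figure D4:**
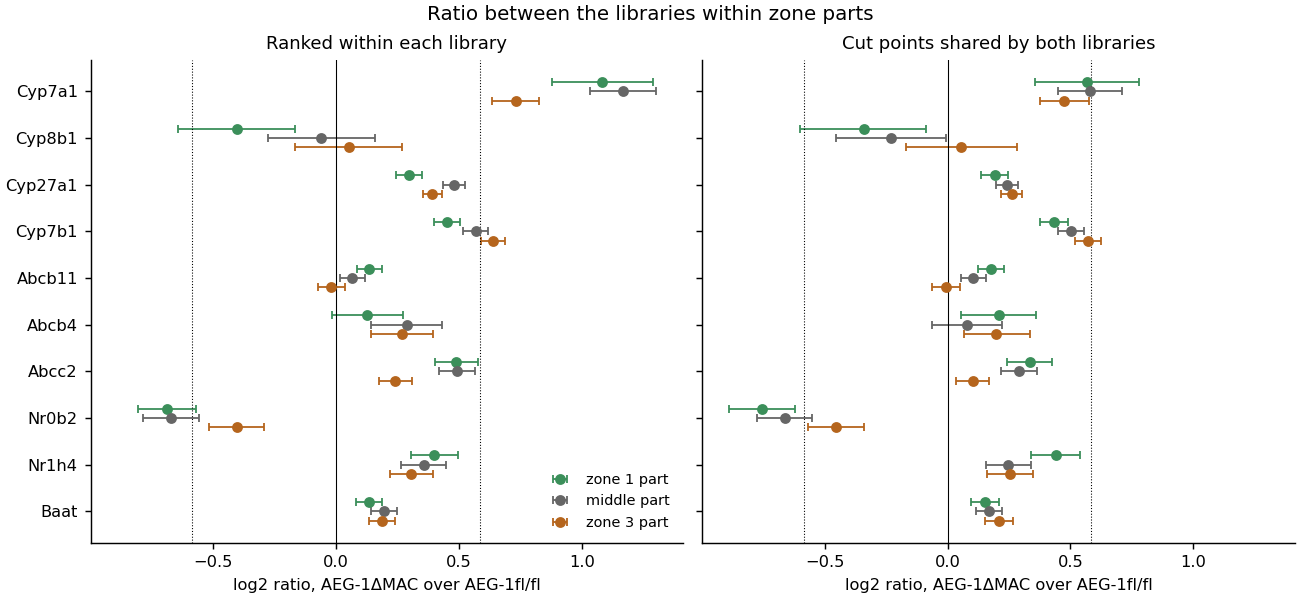
Log2 ratio, AEG-1ΔMAC over AEG-1fl/fl, of each gene within the zone 1, middle and zone 3 parts, with spots ranked within each library (left) or divided at cut points shared by both (right); bars are 95% counting intervals and dotted lines mark 1.5-fold. Cyp7a1 lies at 1.08, 1.17 and 0.73 on the left and at 0.57, 0.58 and 0.47 on the right, while Nr0b2 lies below 0 in all parts of both panels.

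Cyp7a1 is also known as a gene with a strong daily rhythm, and clock genes differed between the sections. Dbp, a circadian activator, was at 17.5 CPM in AEG-1ΔMAC against 2.58 CPM in AEG-1fl/fl, a log2 difference of 2.76. Nr1d1 (REV-ERBα) was at 76.3 and 28.6 CPM and Per1 at 14.1 and 2.50 CPM, log2 ratios of 1.42 and 2.49, while Arntl (BMAL1) was at 30.7 and 50.3 CPM, or -0.71. The hour of tissue collection is not given in the sources used here. The part of collection time in the values of Cyp7a1 and Nr0b2 was not tested.

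Among spots of a section, most members scattered about as independent counts would. The variance of UMIs over thinned spots divided by their mean, which is 1 for pure counting, was 1.34 and 1.29 for Cyp7a1 and 1.41 and 1.28 for Cyp27a1. Within the zone parts of AEG-1ΔMAC these fell to between 1.02 and 1.20 for Cyp7a1 and between 1.06 and 1.23 for Cyp27a1. Cyp7b1 was the exception in AEG-1fl/fl, at 1.39 within the zone 1 part, against 1.07 in the zone 1 part of AEG-1ΔMAC. Cyp7b1 was also compared between spots rich in the cholangiocyte markers Krt7, Krt19, Epcam, Sox9 and Spp1 and other spots. A link between this comparison and the scatter of Cyp7b1 was not tested. The rich spots numbered 107 and 127, of which 90 and 82 lay in the zone 1 part, and the marker sum over all of them was 872 and 701 CPM. It was first compared within the zone 1 part alone, a restriction chosen after the values were seen. There Cyp7b1 was lower in the rich than in the other spots of AEG-1ΔMAC (382 against 429 CPM, log2 -0.17, -0.28 to -0.06). It was higher in the rich spots of AEG-1fl/fl (350 against 305 CPM, log2 0.20, 0.07 to 0.32). All rich spots were also set against the other zone 1 spots. For AEG-1ΔMAC, Cyp27a1 (-0.17), Abcb11 (-0.22), Abcc2 (-0.36) and Alb (-0.13) were then lower too, while Cyp8b1 (0.14) and Nr1h4 (0.04) were above 0. The lower value of Cyp7b1 is therefore not particular to it. For AEG-1fl/fl, Cyp7b1 (0.18) was the only member above 0, and Alb was lower (-0.22). The share of all genes was not worked out.

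For each member the 3 genes with the most similar profile over the 10 bins were found among 1981 candidates, by the mean over both libraries of the correlation of log2 CPM over the 10 bins. The bins share a library and an index, so these values describe and do not test. Cyp7a1 was most like Cyp2c29, Rgn and Cyp2c54 (mean r of 0.998, 0.997 and 0.996). Cyp27a1 was most like Rnase4, Por and Creg1 (0.995, 0.995 and 0.995), and Abcc2 most like Apoa2, Ftl1-ps1 and Ang (0.989, 0.988 and 0.987). These 3 zoned members had the closest matches. Abcb4 was nearest to Acadvl, Gjb1 and Sqstm1 (0.92, 0.90 and 0.90), Cyp7b1 to Dcun1d1, Cyp4f15 and Lamp2 (0.92, 0.89 and 0.89), Nr1h4 to Pnp, Aox1 and Arrdc3 (0.92, 0.91 and 0.91) and Abcb11 to F10, Sgpl1 and Slc7a2 (0.90, 0.90 and 0.88). Profiles with little slope had weaker matches, from Baat with Atf5, Ptprf and Cebpa (0.82, 0.82 and 0.81) and Cyp8b1 with Entpd8, Rab2a and Nr0b2 (0.78, 0.74 and 0.72) to Nr0b2 with Hrg, G3bp2 and Saa4 (0.66, 0.63 and 0.63).

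The wider pathway was read from 46 further bile acid genes, of which 44 were in the gene list used here and 35 had a mean of at least 10 CPM. Of these 35, 34 had a log2 ratio above 0 and 1 below, with a median of 0.25, where 78.3% of all genes were above 0 and their median was 0.15. At least 1.5-fold higher in AEG-1ΔMAC were 6 of the 35, against 4.3% of all genes, and 0 were at least 1.5-fold lower, against 1.79%. Relative to the median of all genes 3 of the 6, Slc10a1, Abcc3 and Nr1i3, were below the limit. Slco1b2, Sult2a8, Abcc3 and Nr1i3 were zoned toward zone 3 in both libraries, and with equal weight to the shared zone parts Slco1b2 was at 0.63 and Sult2a8 at 0.60, while Abcc3 (0.45) and Nr1i3 (0.39) were below the limit. Uptake held 2 of the 6: Slco1b2, an organic anion transporter of the sinusoidal membrane, at 748 and 398 CPM (log2 ratio 0.91), and Slc10a1 (NTCP), the main bile salt importer, at 798 and 510 CPM (0.64). Export held Abcc3 (MRP3), on the blood side of the cell, at 121 and 79.1 CPM (0.61). Among the later enzymes Sult2a8, a bile acid sulfotransferase, was at 1030 and 607 CPM (0.76).

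Regulators held the remaining pair. Foxa2, a hepatocyte transcription factor, was at 34.4 and 15.1 CPM, a log2 ratio of 1.19 and the single gene of the 35 past 2-fold. Nr1i3 (CAR) was at 176 and 109 CPM (0.69). At the low end stood Prox1, a corepressor, at 121 and 131 CPM (-0.11), Fgfr4, the receptor for intestinal FGF15, at 22.2 and 22.0 CPM (0.01), Atp8b1, a canalicular lipid flippase, at 42.5 and 40.5 CPM (0.07), and Nr1i2 (PXR) at 82.4 and 77.8 CPM (0.08). Past 2-fold but under a mean of 10 CPM were 3 more. Fgf21, a hepatic hormone, had 509 UMIs in AEG-1fl/fl and 162 in AEG-1ΔMAC (log2 ratio -1.505), Slc51b (OSTβ), a basolateral bile acid exporter known as an FXR target, had 94 and 41 (-1.05), and Cyp46a1, a brain cholesterol hydroxylase, had 8 and 22 (1.61). Sult2a8 and the Slco1 genes belong to families of similar copies, and their values are uncertain to that extent.

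**Figure D5:**
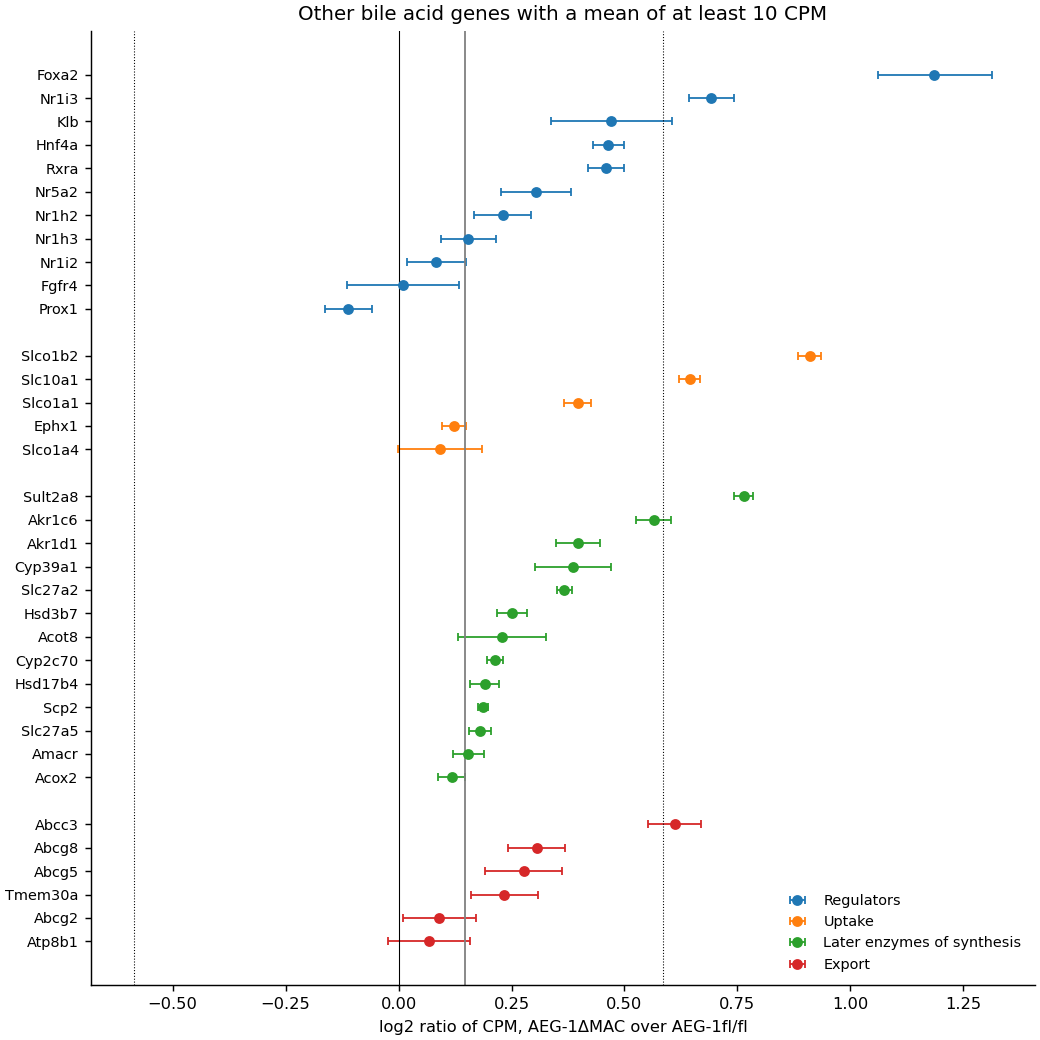
Log2 ratio, AEG-1ΔMAC over AEG-1fl/fl, of the 35 other bile acid genes that reached a mean of 10 CPM, grouped by role, with 95% counting intervals; dotted lines mark 1.5-fold and the grey line the median of all genes, 0.15. Foxa2 lies furthest right at 1.19, and Prox1 is the single gene below 0 at -0.11.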

How the data were processed

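Liver sections, 1 per genotype, were measured by Visium for FFPE tissue. Per the labels, the authors used Space Ranger 2.0.1 with mm10 and Seurat 4.3.0, and the deposited matrices hold raw UMI counts per gene and spot with no normalisation. The methods of the study name a later version of Seurat. Spots were filtered by the limits the study states (at most 50000 UMIs, 100 to 7000 genes), which took out 9 of 2149 spots from AEG-1ΔMAC and 3 of 2543 from AEG-1fl/fl. The study counts all deposited spots as left after these limits, so this step took out spots that the study kept. A gene's UMIs over all kept spots, divided by the library total, gave CPM (10 CPM stood for 455 and 503 UMIs). Intervals were exact Poisson for levels, exact binomial (Clopper-Pearson) for shares and ratios, and Wald for differences of ratios and for equal-weight values. A gene counted with a mean of at least 10 CPM, a ratio of at least 1.5 and its interval on the same side of 1. The scripts ran in Python 3.11.15, with TMM factors from edgeR 4.0.16, and were tested on simulated data. The members, gene lists and rules were chosen with earlier results of these data known. Genes named besides the members were the 4 highest and 4 lowest ratios of the pathway list, those past 2-fold, those called, and the 3 most similar profiles per member; the called genes Slc10a1 and Abcc3 were added after their values were seen. Positions came from GENCODE M21. Mafg, Zfp36l1 and the landmark Glul were not analysed here.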

Additional observations from a re-analysis of the deposited data

How the results depend on the processing

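No paired analysis was possible because each genotype had 1 library. Scaling moved the median log2 ratio of all genes by -0.12 (TMM) to -0.14 (median-of-ratios, or without the 50 most abundant genes). Abcb11 turned from 0.06 to -0.0597 with TMM factors, -0.0786 with median-of-ratios size factors and -0.0777 without the 50 most abundant genes. The number of members at least 1.5-fold lower went from 0 to 1, Nr0b2, under TMM factors, median-of-ratios size factors, the total without the 50 most abundant genes, the mean over spots, the median of all genes as reference, and equal weight to 3 zone parts with shared cut points. The number higher went from 1 to 0 at a fold of 2 and with equal weight to the zone parts, the last chosen after seeing the data. Of all genes, 1.27% were higher at a fold of 2 and 3.71% with equal weight. Of the other bile acid genes, 6 were higher and 3 were so under the 3 scalings and relative to the median, 4 with equal weight to the zone parts, and 1 at a fold of 2, while 2 were lower, not 0, at a mean of at least 1 CPM. In each library 3 members were called for zone 3 and 0 for zone 1 under all 4 zone settings tried. For the other scalings, references, level limits and zone settings the share of all genes was not worked out. Those counts therefore have no background beside them and show nothing particular to these genes. The difference in zone ratio of Cyp8b1 ran from 0.19 (other landmark genes) to 0.56 (outer 10% of spots), and that of Cyp7a1 from -0.66 (outer 10%) to -0.09 (shared cut points). The cause of the changes in count was not tested, beyond the scaling shift given above. Cyp8b1, with 911 and 1099 UMIs, is the member most limited by depth.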

Other observations

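Slc10a2 (ASBT), a sodium-dependent bile acid importer known from ileum and bile ducts, was on a list of ileum markers and is described here because its values were seen to differ. It had 841 UMIs in AEG-1ΔMAC (18.5 CPM) and 2385 UMIs in AEG-1fl/fl (47.4 CPM), a log2 ratio of -1.36. It was seen in 37.4% of thinned spots in AEG-1fl/fl and 16.8% in AEG-1ΔMAC. Vil1, another gene of that list, had 6 and 9 UMIs, and Fgf15 had 0 in both libraries. Within the zone 1 part, Slc10a2 measured 16.7 CPM in spots rich in cholangiocyte markers against 16.2 CPM in the other spots of AEG-1ΔMAC (31 UMIs in the rich spots), and 45.3 against 47.1 CPM in AEG-1fl/fl (76 UMIs). Along the lobule it was flat in AEG-1fl/fl, at 46.9, 46.5 and 48.8 CPM from the zone 1 part to the zone 3 part, and at 16.3, 16.7 and 22.5 CPM in AEG-1ΔMAC. Fgf21 was zoned in AEG-1fl/fl, from 6.95 CPM in the zone 1 part to 12.5 CPM in the zone 3 part, and measured 3.71 and 3.33 CPM in AEG-1ΔMAC.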
